A study of Mus musculus with 18 samples.

Results

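The 33 T cell genes described here encode the T cell receptor complex, its coreceptors and signalling proteins, costimulatory and checkpoint receptors, and markers of regulatory T cells. They were picked by name from the 54532 genes of the read count table, and all 33 were detected. The rule uses no measured value, but the genes were chosen with earlier results of these data known. RNA came from 18 tumours of the mouse breast cancer line PB2. Of these tumours, 8 carried the genotype p95HER2, a shortened HER2, which is a receptor tyrosine kinase, and 10 carried the genotype EV, a term that the labels do not spell out. Every mouse of both groups was kept on the doxycycline diet DOX625. The series title calls the tumours xenografts. The strain, sex and age of the mice, the number of clones behind each PB2 line and the promoter that drives p95HER2 are not given in these sources, and whether tumours shared a mouse is not stated. P-values therefore measure only the spread between these samples, which may be technical.

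T cells recognise peptides through an alpha and a beta receptor chain, encoded in part by the constant region genes Trac, Trbc1 and Trbc2. These chains signal through the CD3 proteins and CD3 zeta, whose tyrosines are phosphorylated by the kinase LCK and then bind the kinase ZAP70. Costimulatory receptors such as CD28 and ICOS add to the signal, while checkpoint receptors such as CTLA-4 and PD-1 restrain it. Regulatory T cells, which depend on the transcription factor FOXP3, suppress other T cells and are common in tumours. Several genes of the set are known to be used outside T cells too. Cd4 is also found in dendritic cells, Havcr2 and Entpd1 in macrophages and dendritic cells, and Entpd1 in endothelium. Tox, Ikzf2, Cd27 and Lat are likewise known from cells other than T cells.

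The libraries held 32686558 to 34804640 counts in p95HER2 tumours and 35030920 to 38464541 in EV tumours, so the totals did not overlap. The numbers in the tumour tags separate the groups as well, and that of p95HER2 1 lies far from the others. Handling that went with either one and the genotype cannot be told apart. Erbb2, the mouse gene for HER2, stood at 122 to 231 CPM (read counts scaled to a common library size) in p95HER2 tumours and at 60.4 to 74.9 CPM in EV tumours. The labelled epithelial origin was visible in both groups: Epcam, Krt8, Krt18 and Cdh1 together had 1731 to 2135 CPM in p95HER2 tumours and 1619 to 2744 CPM in EV tumours.

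T cell genes were measured in every tumour at low levels. Trac had 17 to 123 counts in p95HER2 tumours and 29 to 333 counts in EV tumours. CPM values here are counts divided by the library total after TMM scaling, and 1 count was worth 0.0298 CPM in p95HER2 4. As intervals on such counts cover counting error only, the spread between tumours is given throughout. In these bulk samples, fewer T cells and less RNA of a gene per T cell cannot be told apart.

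Each of the 33 genes had a lower fitted level in p95HER2 than in EV tumours, with log2 fold changes (p95HER2 minus EV) from -1.69 for Cd2 to -0.04 for Tnfrsf18. Among all 17123 genes tested, 52.3% had a negative log2 fold change. The median was -0.96 over the 33 genes and -0.01 over all genes tested. In edgeR's quasi-likelihood test with Benjamini-Hochberg (BH) adjustment over all genes tested, 6 of the 33 fell at an adjusted p under 0.05, namely Bcl11b, Cd2, Cd4, Ccr8, Havcr2 and Tox, and none rose. The same rule called 4.45% of all genes lower and 5.73% higher. Before adjustment 27 of the 33 had p under 0.05 and a negative sign, against 13.3% of all genes. At least 7 of the 8 p95HER2 tumours lay below the EV median for 27 of the 33 genes, against 20.8% of all genes, yet for none did the groups separate fully (0.111% of all genes did so on the low side). Leaving out 1 tumour at a time gave between 2 (without p95HER2 2, 2.83% of all genes lower) and 19 (without EV 1, 6.62%) genes called lower. The count was 3 without p95HER2 1 (3.02%) or without EV 4 (3.93%), 5 (3.08%), 6 (3.57%) or 7 (3.23%), 10 without EV 8 (4.7%) and 12 without EV 10 (5.54%). Without p95HER2 4 and EV 1 together, left out after the data were seen, it was 17 (5.18%). In 17 of the 18 fits with 1 tumour left out all 33 values stayed negative, the exception being Tnfrsf18 (0.02 without p95HER2 3). DESeq2 called 18 of the 33 lower (6.59% of all genes) and limma voom with quality weights 13 (6.03%). Beside the 6, both of these tools called Cd3d, Trbc2, Cd28, Icos, Ctla4 and Entpd1, DESeq2 alone called Trbc1, Cd5, Cd6, Lck, Zap70 and Pdcd1, and limma voom alone called Cd27. RLE scaling (4.37%) and library totals alone (4.7%) gave the same 6 genes, and thinning all libraries to 1 size gave 5 (4.35%). With no filter on low counts only Bcl11b, Havcr2 and Ccr8 were called (edgeR, 1.72% of all genes lower). A filter at 1 CPM left Tox and Ccr8 untested. Of the other 31 genes 5 were then called (5.16% of all genes lower), namely Bcl11b, Cd2, Cd4, Havcr2 and Cd3d.

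**Figure D1:**
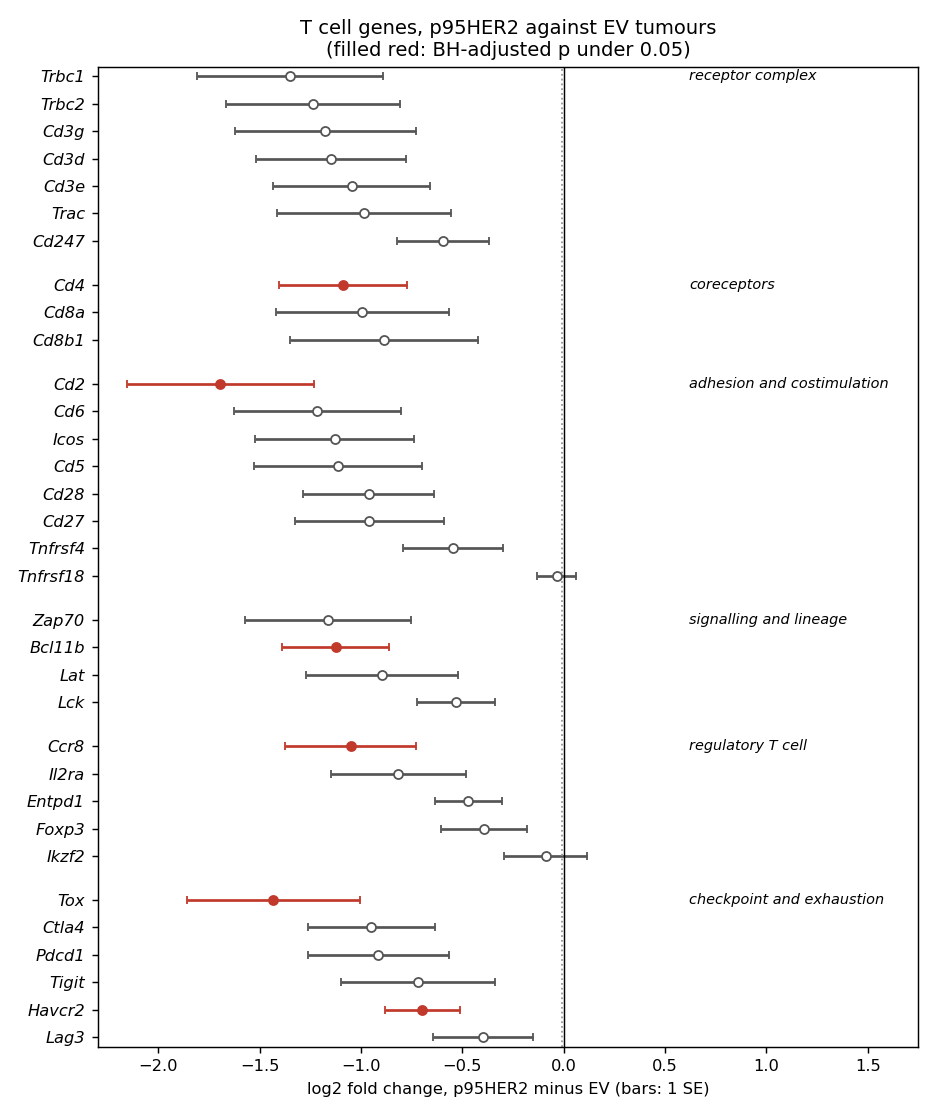
Log2 fold change (p95HER2 minus EV, horizontal axis) of the 33 genes grouped by role, with bars of 1 standard error, and a dotted line at the median of all genes tested. All 33 points lie left of 0, the filled red ones are the 6 genes at an adjusted p under 0.05, and Tnfrsf18 (-0.04) and Ikzf2 (-0.09) lie nearest to 0.

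None of the 7 receptor complex genes passed edgeR's test, and 6 of them had log2 fold changes between -1.35 and -0.99. Cd3e, which encodes the epsilon chain of CD3 (ENSMUSG00000032093, chromosome 9, 44998740 to 45009627 on the minus strand, mm10), had from 0.507 to 2.82 CPM with a median of 1.91 in p95HER2 tumours, and from 0.899 to 8.09 CPM with a median of 3.20 in EV tumours. All 8 p95HER2 tumours lay below the EV median and 1 of them, p95HER2 4, below every EV tumour, while 6 EV tumours exceeded every p95HER2 value. Its log2 fold change was -1.05 (SE 0.39, edgeR adjusted p = 0.09088). Cd3g, the gamma chain gene, averaged 2.65 ± 1.59 CPM in p95HER2 tumours and 5.999 ± 3.56 CPM in EV tumours (SD, n = 8 and 10). The fitted difference was -1.18 on the log2 scale (SE 0.45, edgeR adjusted p = 0.1011). For Cd3d, the delta chain gene, the averages were 1.25 ± 0.574 CPM in p95HER2 and 2.79 ± 1.48 CPM in EV tumours, and it stood just outside the threshold (log2 fold change -1.15, edgeR adjusted p = 0.05433). The other tools called Cd3d, with an adjusted p of 0.0117 in DESeq2 and 0.03321 in limma voom.

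The 3 CD3 genes lie together on chromosome 9, with Cd3g and Cd3d 1.354 kb apart and Cd3e 11.4 kb further on. Cd247, which encodes CD3 zeta on chromosome 1, showed the smallest difference of the complex: 0.626 to 1.71 CPM with a median of 1.33 in p95HER2 tumours, and 1.26 to 3.12 CPM with a median of 1.85 in EV tumours. Here 4 p95HER2 tumours were below every EV tumour, and the log2 fold change was -0.60 (SE 0.23, edgeR adjusted p = 0.09683). Its exons overlap those of Pou2f1 on the opposite strand over part of their length. Pou2f1 averaged 37.8 CPM in p95HER2 and 41.1 CPM in EV tumours, and since the strand setting of the counting is not given, the Cd247 values are uncertain.

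The receptor's own constant regions showed the same direction. Trac, the alpha chain constant gene (chromosome 14), ranged from 0.507 to 3.69 CPM in p95HER2 tumours and from 0.790 to 9.22 CPM in EV tumours (log2 fold change -0.99, SE 0.43, edgeR adjusted p = 0.1498). Trbc2, a beta chain constant gene, averaged 1.82 ± 1.19 CPM in p95HER2 and 4.29 ± 2.32 CPM in EV tumours, a log2 fold change of -1.24 (SE 0.43, edgeR adjusted p = 0.07229). Its neighbour Trbc1, 6.848 kb away on chromosome 6, averaged 0.806 ± 0.491 CPM in p95HER2 and 2.06 ± 1.43 CPM in EV tumours (log2 fold change -1.35, edgeR adjusted p = 0.06642). Neither gene passed edgeR's test, while DESeq2 called both (adjusted p = 0.03723 for Trbc2 and 0.01523 for Trbc1) and limma voom called Trbc2 (adjusted p = 0.031). The 2 are near-identical copies. How the counting treated reads that match both is not given, so the levels of both genes are uncertain. Over 518 aligned coding bases of each (GENCODE M21, mm10) they share 495, or 95.6%. Only 4 of the 23 differences lie in the first 398 coding bases, and the other 19 lie in the last 120. That stretch, coding bases 399 to 518, is shown because it holds most of the differences by which reads can be told apart, with the differing bases in capitals.
Trbc1: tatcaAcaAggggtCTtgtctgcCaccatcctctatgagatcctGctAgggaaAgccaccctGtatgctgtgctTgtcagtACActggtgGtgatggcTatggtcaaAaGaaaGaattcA
Trbc2: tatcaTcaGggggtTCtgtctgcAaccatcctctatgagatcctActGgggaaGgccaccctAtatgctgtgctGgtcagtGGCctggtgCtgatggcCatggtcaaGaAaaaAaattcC

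Among the coreceptors, Cd4 fell. Cd4 marks helper and regulatory T cells and binds MHC class II (ENSMUSG00000023274, chromosome 6, 124864692 to 124888221 on the minus strand). In p95HER2 tumours it had 0.388 to 2.16 CPM with a median of 1.57, and in EV tumours 1.28 to 4.83 CPM with a median of 3.20. No p95HER2 tumour reached the EV median, and 2 lay below every EV tumour. The log2 fold change was -1.09 (SE 0.32, edgeR adjusted p = 0.03262). This call was kept in 12 of the 18 fits with 1 tumour left out and lost without p95HER2 1 or 2 or without EV 4, 5, 6 or 7 (edgeR adjusted p up to 0.06634).

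Cd8a and Cd8b1, which encode the chains of the CD8 coreceptor of cytotoxic T cells, did not pass. Cd8a ranged from 1.19 to 8.28 CPM with a median of 5.32 in p95HER2 tumours, and from 2.04 to 21.3 CPM with a median of 7.15 in EV tumours. The highest EV value is that of EV 7, and all p95HER2 tumours but p95HER2 4 (1.19 CPM) lie within the EV range. The fitted log2 difference was -0.99 (SE 0.43, edgeR adjusted p = 0.1474). Cd8b1 averaged 1.96 ± 1.17 CPM in p95HER2 and 3.63 ± 2.58 CPM in EV tumours (log2 fold change -0.89, edgeR adjusted p = 0.2343). Within each library, the log2 ratio of Cd8a to Cd4 counts averaged 1.68 ± 0.32 in p95HER2 and 1.42 ± 0.64 in EV tumours (SD, n = 8 and 10). It did not differ beyond its spread (difference 0.25, two-sided exact permutation test with 43758 assignments, p = 0.321, BH-adjusted over the 6 ratios tested p = 0.511).

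Of the 8 adhesion and costimulation genes, Cd2 fell. CD2 is an adhesion receptor of T and NK cells that binds CD48 in the mouse (ENSMUSG00000027863, chromosome 3, 101275899 to 101287939 on the minus strand). It ranged from 0.0298 CPM, a single count in p95HER2 4, to 2.07 CPM with a median of 0.892 in p95HER2 tumours, and from 0.735 to 5.83 CPM with a median of 3.16 in EV tumours. All 8 p95HER2 tumours were below the EV median and 3 were below every EV tumour. At a log2 fold change of -1.69 (SE 0.46, edgeR adjusted p = 0.02605) it was the largest fitted difference of the 33. The call was lost without p95HER2 1 or without p95HER2 2 (edgeR adjusted p up to 0.05484). Cd48, the gene of its ligand, fell as well, at a log2 fold change of -0.70 (SE 0.22, edgeR adjusted p = 0.04258).

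The scavenger receptor family genes Cd5 and Cd6, which lie 50.338 kb apart on chromosome 19, had log2 fold changes of -1.11 and -1.22 (edgeR adjusted p = 0.09327 and 0.06542). For the linked receptor genes Cd28, Ctla4 and Icos on chromosome 1, the values were -0.96, -0.95 and -1.13 (edgeR adjusted p = 0.06315, 0.05703 and 0.07092), none past the threshold in edgeR, though DESeq2 and limma voom each called all of them. Cd27, a costimulatory TNF receptor, averaged 0.643 ± 0.343 CPM in p95HER2 tumours and 1.25 ± 0.649 CPM in EV tumours (edgeR adjusted p = 0.1008). Tnfrsf4 and Tnfrsf18 encode the costimulatory receptors OX40 and GITR and lie 9.551 kb apart on chromosome 4. Tnfrsf4 had a log2 fold change of -0.55 (SE 0.25, edgeR adjusted p = 0.1601). Tnfrsf18 ranged from 4.08 to 6.26 CPM in p95HER2 tumours and from 4.79 to 6.44 CPM in EV tumours, at a log2 fold change of -0.04 (SE 0.10, edgeR adjusted p = 0.8585). Its values spread least of the 33 genes, with a coefficient of variation of 12.8% in p95HER2 and 11.2% in EV tumours, against medians over the 33 of 47.6% and 50.7%. It is also the only one of the 33 genes that was highest among p95HER2 tumours in p95HER2 4, the tumour lowest for 30 of them. The exons of Tnfrsf18 overlap those of Gm16008 on the opposite strand over part of their length, which makes its counts uncertain. Which cells these counts came from was not tested.

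Bcl11b led the signalling and lineage genes. It encodes a zinc finger factor needed for T cell commitment and identity, also expressed in skin and other tissues (ENSMUSG00000048251, chromosome 12, 107910403 to 108003602 on the minus strand). It had 0.541 to 1.06 CPM with a median of 0.819 in p95HER2 tumours, and 0.703 to 2.74 CPM with a median of 1.81 in EV tumours. The p95HER2 values were tightly grouped below the EV median, beside the 3 lowest EV tumours. Its log2 fold change of -1.13 (SE 0.26, edgeR adjusted p = 0.009996) had the smallest adjusted p of the 33 genes. The call was kept in all 18 fits with 1 tumour left out (edgeR adjusted p up to 0.02305). Markers of keratinocytes, a cell type of the skin, summed to 5.08 to 11.7 CPM in p95HER2 and 9.89 to 39.3 CPM in EV tumours, and their part in the Bcl11b values was not tested.

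Lck, the kinase that starts receptor signalling, had 5.22 to 10.3 CPM with a median of 8.30 in p95HER2 tumours and 5.71 to 15.1 CPM with a median of 10.8 in EV tumours. All p95HER2 tumours were below the EV median, but the difference was small: the log2 fold change was -0.53 (SE 0.19, edgeR adjusted p = 0.08468). The kinase gene Zap70 had a log2 fold change of -1.16 (SE 0.41, edgeR adjusted p = 0.07602). For Lat, the adaptor that ZAP70 phosphorylates, the value was -0.90 (SE 0.37, edgeR adjusted p = 0.1293).

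**Figure D2:**
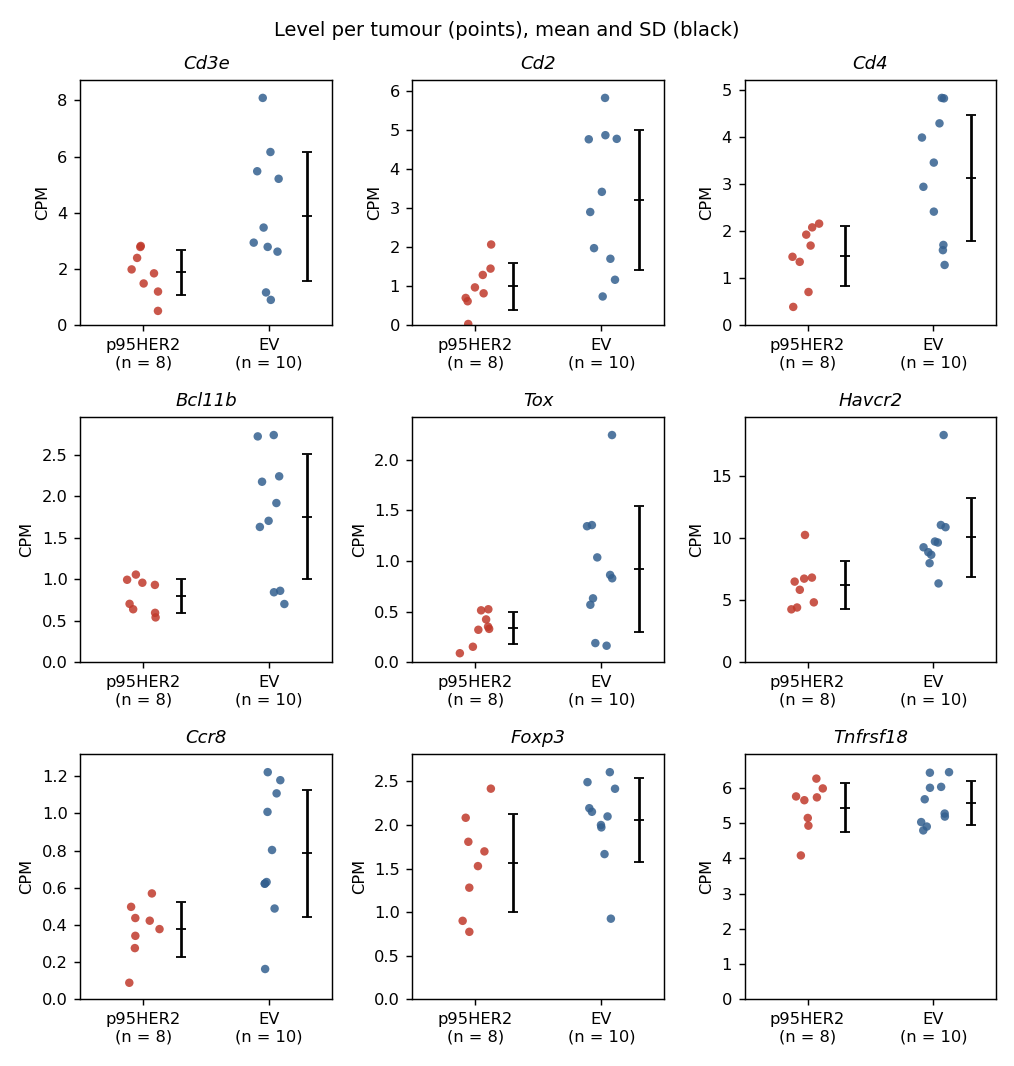
CPM per tumour (points) of 9 genes in p95HER2 tumours (left, n = 8) and EV tumours (right, n = 10), with the mean and SD in black. Cd2, Cd4, Bcl11b, Tox, Havcr2 and Ccr8 passed edgeR's test, while Cd3e, Foxp3 and Tnfrsf18 did not, and the groups overlap in every panel.

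Of 5 regulatory T cell genes, Ccr8 passed edgeR's test and Foxp3, Il2ra, Entpd1 and Ikzf2 did not. Foxp3 (ENSMUSG00000039521, chromosome X, 7573644 to 7595245 on the plus strand) had 0.775 to 2.42 CPM with a median of 1.61 in p95HER2 tumours, and 0.926 to 2.61 CPM with a median of 2.13 in EV tumours. The ranges overlap over most of their length. Its log2 fold change was -0.39 (SE 0.21, edgeR adjusted p = 0.242). The exons of Foxp3 overlap those of Flicr on the same strand and those of Ccdc22 and Ppp1r3f on the other strand, which makes its counts uncertain. The log2 ratio of Foxp3 to Cd3e counts averaged -0.19 ± 0.70 in p95HER2 and -0.68 ± 0.80 in EV tumours (SD, n = 8 and 10; difference 0.49, exact permutation p = 0.188, adjusted p = 0.511). Il2ra, the high-affinity interleukin-2 receptor chain CD25, ranged from 0.179 to 3.02 CPM in p95HER2 tumours and from 1.84 to 5.39 CPM in EV tumours (log2 fold change -0.82, SE 0.33, edgeR adjusted p = 0.1249).

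Ccr8, a chemokine receptor known from regulatory T cells of tumours, fell. It had 0.0895 to 0.570 CPM with a median of 0.401 in p95HER2 tumours, and 0.163 to 1.22 CPM with a median of 0.717 in EV tumours (ENSMUSG00000042262, chromosome 9, 120092114 to 120094906 on the plus strand). These are 3 to 19 counts per p95HER2 tumour and 6 to 46 per EV tumour. Every p95HER2 tumour was below the EV median. The fitted log2 difference was -1.05 (SE 0.32, edgeR adjusted p = 0.04055), a call kept in 7 of the 18 fits with 1 tumour left out. It was lost without p95HER2 1, 2, 3, 4, 5 or 7 and without EV 4, 5, 6, 7 or 9 (edgeR adjusted p up to 0.07968). Ccl8, a chemokine that acts on CCR8 in the mouse, fell too: it averaged 9.85 CPM in p95HER2 and 21.6 CPM in EV tumours (log2 fold change -1.13, SE 0.24, edgeR adjusted p = 0.007737).

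Entpd1, the ectonucleotidase CD39, ranged from 7.54 to 18.1 CPM with a median of 12.5 in p95HER2 tumours, and from 11.7 to 27.3 CPM with a median of 16.5 in EV tumours (log2 fold change -0.47, SE 0.16, edgeR adjusted p = 0.07267). Ikzf2, which encodes the factor Helios of regulatory T cells, ranged from 5.04 to 9.34 CPM in p95HER2 tumours and from 2.59 to 11.3 CPM in EV tumours. Its log2 fold change was -0.09 (SE 0.21, edgeR adjusted p = 0.830), and it was the only one of the 33 genes with no p95HER2 tumour below the lowest EV tumour. Its lowest p95HER2 value, 5.04 CPM, was that of p95HER2 4, where Cd3e had 0.507 CPM. Which cells the Ikzf2 counts came from was not tested.

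Of 6 checkpoint and exhaustion genes, Havcr2 and Tox fell. Havcr2, the gene of the inhibitory receptor TIM-3 (ENSMUSG00000020399, chromosome 11, 46454935 to 46481255 on the plus strand), had 4.26 to 10.3 CPM with a median of 6.17 in p95HER2 tumours, and 6.35 to 18.3 CPM with a median of 9.45 in EV tumours. In all, 4 of 8 p95HER2 tumours were below the lowest EV tumour, and 1, p95HER2 6, was above the EV median. The log2 fold change was -0.70 (SE 0.19, edgeR adjusted p = 0.02087), kept in all 18 fits with 1 tumour left out (edgeR adjusted p up to 0.04763). TIM-3 is made by macrophages and dendritic cells as well as by T cells. Beside it, the macrophage gene Adgre1 fell by 0.89 on the log2 scale, and the log2 ratio of Havcr2 to Adgre1 was -1.54 ± 0.33 in p95HER2 and -1.70 ± 0.37 in EV tumours (SD, n = 8 and 10; difference 0.16, exact permutation p = 0.341, adjusted p = 0.511). Against Cd3e the log2 ratio was 1.82 ± 0.54 in p95HER2 and 1.60 ± 0.88 in EV tumours (difference 0.23, exact permutation p = 0.534, adjusted p = 0.641).

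Tox encodes a nuclear factor of T cell exhaustion (ENSMUSG00000041272, chromosome 4, 6686353 to 6991557 on the minus strand). It had 0.0895 to 0.523 CPM with a median of 0.341 in p95HER2 tumours, that is 3 to 18 counts, and 0.163 to 2.24 CPM with a median of 0.846 in EV tumours, or 6 to 81 counts. All p95HER2 tumours were below the EV median, and 2 EV tumours, EV 1 and EV 10, lay as low. The log2 fold change was -1.43 (SE 0.43, edgeR adjusted p = 0.03691), a call kept in 7 of the 18 fits with 1 tumour left out. It was lost without p95HER2 2, 3, 4, 6, 7 or 8 and without EV 4, 5, 6, 7 or 9 (edgeR adjusted p up to 0.07402). The log2 ratio of Tox to Cd3e averaged -2.43 ± 0.52 in p95HER2 and -2.13 ± 0.29 in EV tumours (SD, n = 8 and 10; difference -0.30, exact permutation p = 0.141, adjusted p = 0.511).

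The checkpoint receptor genes Pdcd1, Ctla4, Lag3 and Tigit did not pass edgeR's test, a call that depended on the tool for the first pair. DESeq2 called Pdcd1 (adjusted p = 0.03453) and Ctla4 (adjusted p = 0.02417), and limma voom called Ctla4 (adjusted p = 0.01479) but not Pdcd1 (adjusted p = 0.05544). Pdcd1, which encodes PD-1, had 0.596 to 3.75 CPM with a median of 2.61 in p95HER2 tumours, and 1.61 to 6.87 CPM with a median of 4.28 in EV tumours. The fitted log2 difference was -0.91 (SE 0.35, edgeR adjusted p = 0.09977). The log2 ratio of Pdcd1 to Cd3e was 0.21 ± 0.30 in p95HER2 and 0.25 ± 0.40 in EV tumours (SD, n = 8 and 10; difference -0.04, exact permutation p = 0.802, adjusted p = 0.802). Ctla4 ranged from 0.328 to 1.64 CPM with a median of 0.757 in p95HER2 tumours and from 0.436 to 2.44 CPM with a median of 1.79 in EV tumours, just outside edgeR's threshold as given above.

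Lag3, an inhibitory receptor that binds MHC class II, lies 16.139 kb from Cd4 on chromosome 6. It ranged from 2.70 to 6.81 CPM with a median of 5.24 in p95HER2 tumours, and from 3.49 to 11.99 CPM with a median of 5.95 in EV tumours (log2 fold change -0.40, SE 0.25, edgeR adjusted p = 0.3166). Tigit, a receptor for the poliovirus receptor protein, ranged from 0.239 to 1.86 CPM in p95HER2 and from 0.763 to 4.01 CPM in EV tumours (log2 fold change -0.72, SE 0.38, edgeR adjusted p = 0.2362). Of the ligands of these receptors, Cd274, the gene of PD-L1, had a log2 fold change of -0.34 (SE 0.23, edgeR adjusted p = 0.3654) and Pvr 0.32 (SE 0.12, edgeR adjusted p = 0.1067).

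Per kilobase of exon, which allows levels of different genes to be compared, the order within the set was led in p95HER2 tumours by Tnfrsf18 at 3.57 CPM per kb, followed by Trbc2 at 2.62, Lck at 2.61 and Trac at 2.29 CPM per kb. In EV tumours Trbc2 led at 6.19 CPM per kb, followed by Trac at 4.55, Lck at 3.77 and Havcr2 at 3.70, with Tnfrsf18 at 3.66 CPM per kb. These neighbours differ by less than their spread between tumours (Trbc2 ran from 1.77 to 11.0 CPM per kb in EV tumours). Tox was lowest in both groups, at 0.0444 CPM per kb in p95HER2 and 0.121 CPM per kb in EV tumours.

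The tumours differed widely within each group, and most T cell genes were low or high in the same tumours. Among p95HER2 tumours, p95HER2 4 was lowest for 30 of the 33 genes and p95HER2 6 highest for 17. Among EV tumours, EV 1 was lowest for 24 genes and EV 7 highest for 18. The sum of all 33 genes was 40.6 CPM in p95HER2 4 and 115 CPM in p95HER2 6, against 65.3 CPM in EV 1 and 224 CPM in EV 7. With 65.3, 76.6, 96.5 and 100.04 CPM, the tumours EV 1, EV 10, EV 8 and EV 3 lay within the p95HER2 range, and the other 6 EV tumours lay above it. This sum leans on genes also used outside T cells. In p95HER2 4, Entpd1 alone had 7.54 CPM, and Cd3d, Cd3e and Cd3g together had 1.25 CPM. By the sum of these CD3 genes, EV 2 (9.36 CPM) also lay within the p95HER2 range of 1.25 to 9.89 CPM. For 21 genes the p95HER2 values, and for 20 genes the EV values, spanned at least 5-fold.

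**Figure D3:**
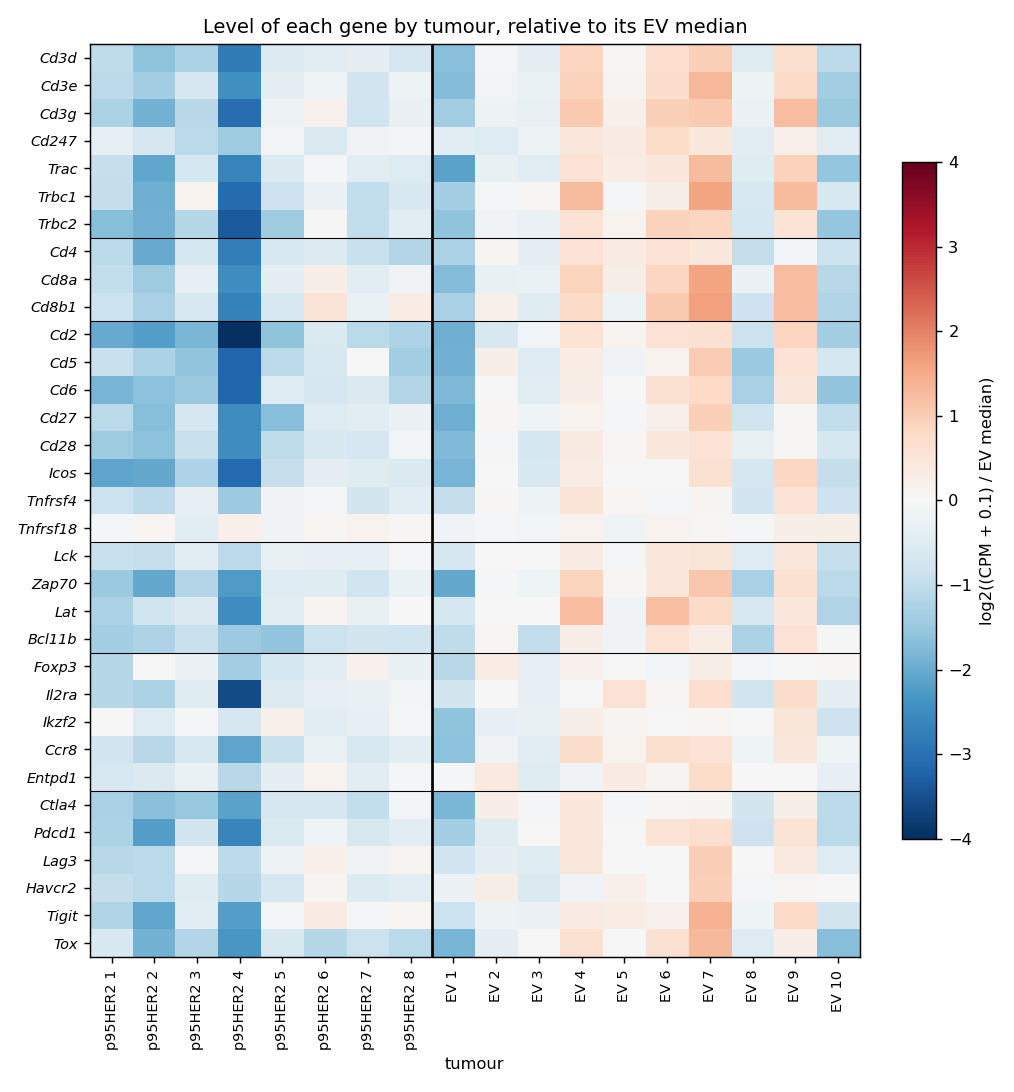
Level of each gene (rows, by role) in each tumour (columns, p95HER2 left, EV right) as log2((CPM + 0.1) / EV median); blue is below and red above the EV median. The columns of p95HER2 4 and EV 1 are blue almost throughout, the other p95HER2 columns are mostly blue, EV 4, 6, 7 and 9 are mostly red, and the rows of Tnfrsf18 and Ikzf2 are pale.

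Genes of other immune cells fell in the same comparison. Of 12 macrophage markers 7 fell and 1 rose, and their sum was 619 to 1113 CPM with a median of 823 in p95HER2 tumours and 836 to 1613 CPM with a median of 1152 in EV tumours. Adgre1, Ms4a7 and Lyz2 were among those that fell (edgeR adjusted p = 0.007413, 0.009347 and 0.01310), and Cd14 rose by 0.24 on the log2 scale. Of 8 cytotoxic and NK markers tested, 4 fell, Prf1, Klrb1c, Gzmb and Ccl5. Their list sum was 10.1 to 30.4 CPM in p95HER2 and 17.005 to 76.6 CPM in EV tumours. Of 3 B cell markers tested, Cd22 and Pax5 fell, with list sums of 0.919 to 3.54 CPM in p95HER2 and 3.30 to 8.69 CPM in EV tumours, while Ms4a1 and Cd79a had too few counts to test.

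No marker passed among 5 dendritic, 5 endothelial, 4 epithelial and 5 skeletal muscle genes. Skeletal muscle sums ran from 226 to 2503 CPM with a median of 1222 in p95HER2 tumours. In EV tumours they ran from 66.3 to 4874 CPM with a median of 3041. All 5 muscle genes had negative log2 fold changes, with a median of -1.15, though none passed. Outside the immune cells, all 5 adipocyte genes and 2 of 3 tested keratinocyte genes (Krt79 and Sbsn) fell, and the adipocyte sum was 8.58 to 29.4 CPM in p95HER2 and 26.2 to 83.4 CPM in EV tumours, highest in EV 1. EV 1 also had the highest keratinocyte sum (39.3 CPM) and epithelial sum (2744 CPM) of all 18 tumours. The part of these tissues in the T cell values was not tested.

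**Figure D4:**
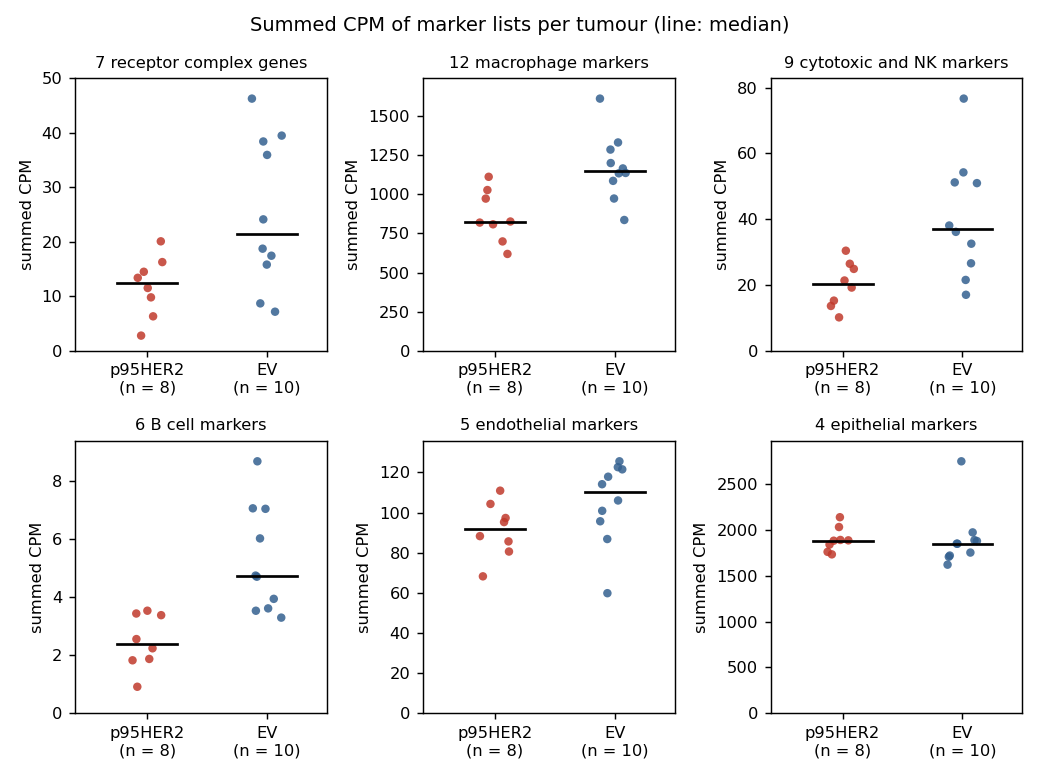
Summed CPM per tumour (points) of the 7 receptor complex genes and of 5 marker lists in p95HER2 (left, n = 8) and EV tumours (right, n = 10), with a line at the median. The receptor complex ran from 2.77 to 20.1 CPM in p95HER2 and from 7.16 to 46.3 CPM in EV tumours, and the epithelial sums of the groups lie at the same height.

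Other genes of T cell receptor signalling and T cell state, 48 in number and none of the 33, included 41 with enough counts to test. Of these 11 fell and 3 rose, against 4.45% and 5.73% of all genes. Nfatc2, a transcription factor activated by calcium after receptor signalling, fell by 1.11 on the log2 scale (SE 0.21, edgeR adjusted p = 0.002162), and the exchange factor gene Vav1 fell by 0.80 (SE 0.19, edgeR adjusted p = 0.01178). Among those that rose were Plcg1, which many cell types express, by 0.22 (edgeR adjusted p = 0.004085), and Lef1 by 0.93 (edgeR adjusted p = 0.03693). Of 12 tested ligands of checkpoint and costimulatory receptors, Ccl8, Cd86 and Cd48 fell and Nectin2 rose by 0.19 on the log2 scale (edgeR adjusted p = 0.03202).

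A fit with the CD3 level of each tumour as a covariate (the mean log2 CPM of Cd3d, Cd3e and Cd3g) compared the other 30 genes at equal CD3 level. Their median log2 fold change was -0.12 with the covariate, in place of -0.95 without it, and 29 of the 30 lay nearer to 0, the exception being Ikzf2. The 3 CD3 genes belong to the set and were themselves lower in p95HER2 tumours (log2 fold changes of -1.15, -1.05 and -1.18). Most of the other genes rose and fell with them across tumours, so a shift towards 0 was largely built into this fit. None of the 30 passed (1.35% of all genes were called lower in this fit), while 3 had an unadjusted edgeR p under 0.05 on the low side and 3 on the high side. Lower were Bcl11b at -0.64 (edgeR adjusted p = 0.1464), Cd2 at -0.55 (edgeR adjusted p = 0.1904) and Havcr2 at -0.41 (edgeR adjusted p = 0.1611). Higher were Ikzf2 at 0.43 (edgeR adjusted p = 0.1468), Cd8b1 at 0.41 (edgeR adjusted p = 0.2158) and Cd8a at 0.27 (edgeR adjusted p = 0.2123). With the level of the 12 macrophage markers as a covariate, the median of the 33 genes was -0.26, the value of Havcr2 was -0.04, and none passed (0.193% of all genes were called lower). Before adjustment 0 of the 33 had an edgeR p under 0.05 on the low side in that fit.

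**Figure D5:**
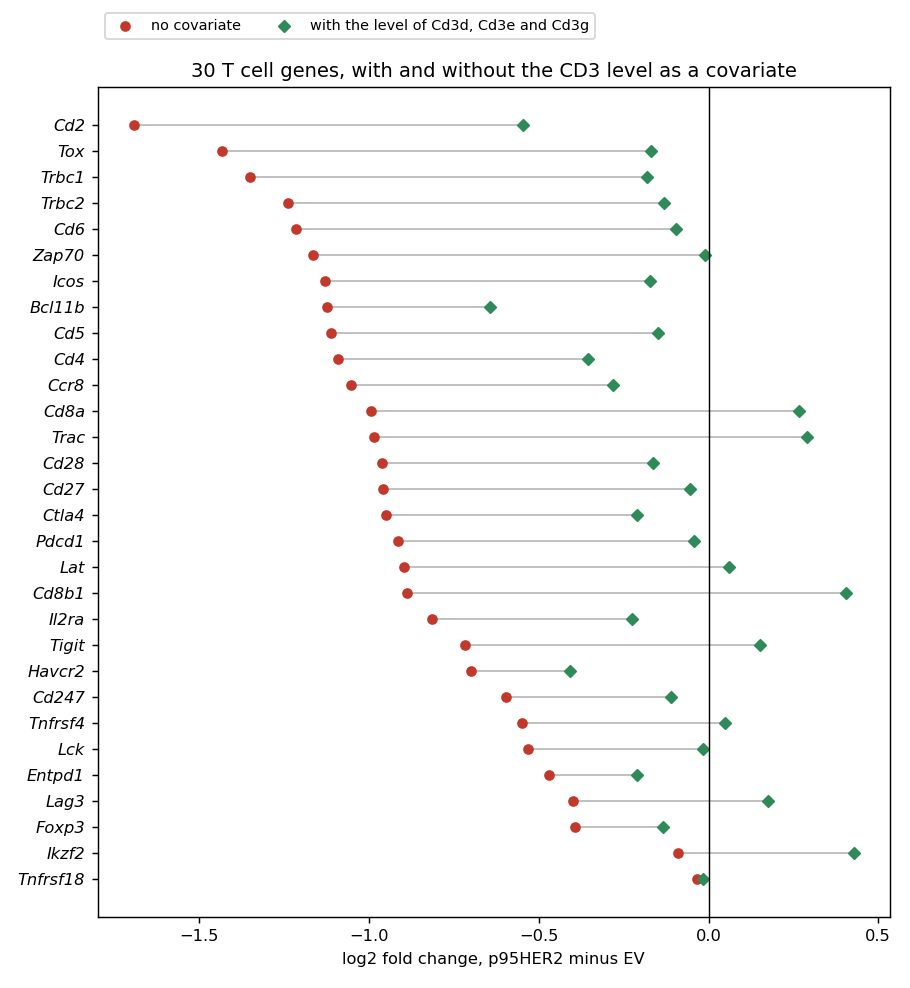
Log2 fold change (p95HER2 minus EV) of 30 genes without (red circles) and with (green diamonds) the CD3 level of the tumour as a covariate. With it, values gather around 0 (median -0.12), Bcl11b, Cd2 and Havcr2 lie lowest, and Ikzf2, Cd8b1, Trac and Cd8a lie highest.

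Promoter sequences from RefSeq (GRCm38.p6, 250 bases before to 50 after the start) were at hand for 21 of the 33 genes, with 26 promoters. These promoters were searched on both strands for short motifs of T cell transcription factors. The motifs were an ETS motif (AGGAAG), a RUNX core (TGTGGT), an NFAT core (GGAAAA) and a TCF/LEF core (CTTTGA). The ETS motif was found in 17 of 26 promoters (65.4%), against 35.4% of all 32851 promoters of the same length. RUNX was found in 6 (23.1%, against 16.8%), NFAT in 8 (30.8%, against 23.4%) and TCF/LEF in 6 (23.1%, against 16.0%). Zap70, Lck, Foxp3 and Entpd1 entered with more than 1 promoter each. A match is a run of letters, not a site shown to be used, and ETS and NFAT matches can overlap. The shares describe a list of T cell genes whatever the genotype, so they say nothing about the differences between the groups. The promoters shown are those of the 3 genes with a table entry that fell, Bcl11b, Ccr8 and Havcr2, and of Cd3d and Cd3e for the receptor complex, 5′ to 3′ on the strand of the gene with motif matches in capitals. They lie at chr12:108003365-108003664 on the minus strand, chr9:120091883-120092182 and chr11:46454681-46454980 on the plus strand, chr9:44981536-44981835 on the plus strand and chr9:45009562-45009861 on the minus strand.
Bcl11b: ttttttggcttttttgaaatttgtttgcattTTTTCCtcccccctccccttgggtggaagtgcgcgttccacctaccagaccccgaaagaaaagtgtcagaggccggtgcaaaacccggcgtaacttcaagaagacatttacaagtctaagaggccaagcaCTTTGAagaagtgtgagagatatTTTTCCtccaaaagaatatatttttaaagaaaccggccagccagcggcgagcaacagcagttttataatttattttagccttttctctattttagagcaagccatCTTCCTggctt
Ccr8: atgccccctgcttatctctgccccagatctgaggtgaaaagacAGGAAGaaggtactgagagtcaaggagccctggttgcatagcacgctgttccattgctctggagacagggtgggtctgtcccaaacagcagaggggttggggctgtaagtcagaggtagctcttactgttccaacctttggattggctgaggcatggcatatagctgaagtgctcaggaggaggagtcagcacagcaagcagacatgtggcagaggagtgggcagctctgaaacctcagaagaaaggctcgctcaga
Havcr2: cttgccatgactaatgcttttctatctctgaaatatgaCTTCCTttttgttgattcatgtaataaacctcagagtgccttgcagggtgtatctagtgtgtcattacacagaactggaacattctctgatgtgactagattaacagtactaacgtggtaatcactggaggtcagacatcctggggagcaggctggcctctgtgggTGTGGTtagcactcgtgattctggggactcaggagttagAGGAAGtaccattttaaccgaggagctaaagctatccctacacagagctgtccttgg
Cd3d: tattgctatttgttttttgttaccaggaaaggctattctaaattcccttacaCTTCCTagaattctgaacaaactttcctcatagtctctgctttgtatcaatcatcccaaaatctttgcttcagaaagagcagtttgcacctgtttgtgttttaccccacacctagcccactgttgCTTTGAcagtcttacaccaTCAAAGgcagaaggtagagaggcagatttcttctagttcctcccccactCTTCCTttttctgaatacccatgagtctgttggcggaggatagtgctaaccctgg
Cd3e: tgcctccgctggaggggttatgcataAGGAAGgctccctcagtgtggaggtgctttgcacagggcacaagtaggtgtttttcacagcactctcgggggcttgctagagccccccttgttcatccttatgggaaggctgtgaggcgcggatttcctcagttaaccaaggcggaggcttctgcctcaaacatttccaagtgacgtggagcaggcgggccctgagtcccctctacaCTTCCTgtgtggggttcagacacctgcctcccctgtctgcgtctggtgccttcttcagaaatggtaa
Bcl11b holds 4 matches (2 NFAT, 1 ETS, 1 TCF/LEF), Ccr8 holds 1 ETS match, and Havcr2 holds 2 ETS and 1 RUNX. Cd3d holds 2 ETS and 2 TCF/LEF matches and Cd3e 2 ETS matches. An ETS match is thus found in all 5 promoters shown, which include both called and uncalled genes. Other promoters of the set, not shown, differ: that of the third CD3 gene, Cd3g, holds no match of any of these motifs. Those of Cd8a and Tnfrsf4 hold none either.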

How the data were processed

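RNA of 18 tumours was sequenced, 8 p95HER2 and 10 EV. The values deposited by the authors are whole-number counts for each Ensembl gene and tumour, not normalized. The submitters' processing notes name STAR 2.5, HTSeq 0.6.1 and mm10. The strand option and annotation release were not given in the sources used here. Columns were matched to tumours by the tag in the title, and replicates were numbered in accession order, a name only. Symbols were found for 54409 of 54532 identifiers, and 22778 genes were 0 throughout. Coordinates (1-based) and exon lengths are from GENCODE M21 (mm10).

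All genes were fitted with edgeR 4.0.16 (R 4.3.3): filterByExpr (minimum count 10, minimum total 15), TMM scaling, robust quasi-likelihood F-test, BH adjustment over the 17123 genes tested, called under 0.05. All 33 T cell genes passed the filter. The test was run on simulated counts first. Ratios used log2((count + 0.5)/(count + 0.5)) and a two-sided exact permutation test (numpy 2.4.6). The closest pair of libraries differed by 9.72 chi-square units per gene, above sampling noise, so all 18 were kept apart. Alternatives used DESeq2 1.42.0, limma 3.58.1, other scalings and filters, thinning, covariates and leaving out tumours.

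The T cell genes, their roles and the marker lists were chosen with earlier results of these data known. Named in full were the genes that fell and 14 others chosen by role, and of other lists up to 4 called genes of smallest adjusted p, plus Adgre1, though some of these are not reported here. Cd14, Lef1, Cd274, Pvr and the genes that overlap or share a list with a named one (Pou2f1, Ccdc22, Ppp1r3f, Ms4a1, Cd79a) were named after their values were seen. Gm16008 and Flicr were named for their overlap only, without their values.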

Additional observations from a re-analysis of the deposited data

Results flagged for a closer look

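In 4 of 78 sets of values (33 genes and 6 ratios in each group), 1 tumour stood apart from the rest of its group. Chance gives about 1 in 20 at the cutoff used for p95HER2 tumours, and fewer at the stricter cutoff used for EV tumours. Foxp3 was at 0.926 CPM in EV 1, the lowest EV tumour, while the other EV tumours lay at 1.67 CPM or more. Il2ra was at 0.179 CPM in p95HER2 4, that is 6 counts, against 1.29 CPM or more in the other p95HER2 tumours. The log2 ratio of Pdcd1 to Cd3e was -0.47 in p95HER2 2, and 0.16 or more in the other p95HER2 tumours. The log2 ratio of Havcr2 to Cd3e was 3.04 in p95HER2 4, the highest of its group, where Cd3e had 17 counts.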

How the results depend on the processing

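The 6 falls among the 33 T cell genes were the same with RLE scaling and with library totals only. With libraries thinned to the smallest total 5 remained, and Ccr8 was lost (edgeR adjusted p = 0.05356). With a filter at 1 CPM, Tox and Ccr8 were not tested and Cd3d was called (edgeR adjusted p = 0.04972), which gave 5 of 31. The count was 3 without a filter on low counts, 18 with DESeq2 and 13 with limma voom, and 17 without p95HER2 4 and EV 1 together, an alternative chosen after seeing the data. No gene was called with the T cell level as a covariate (0 of 30) or the macrophage level (0 of 33), and all genes called lower then numbered 231 and 33, against 762, and those called higher 458 and 142, against 981. Leaving out 1 tumour gave 2 to 19 T cell genes, 489 to 1130 of all genes lower and 792 to 1201 higher. Signs turned with the T cell covariate for Cd8a (0.27), Cd8b1 (0.41), Trac (0.29), Lat (0.061), Lag3 (0.17), Tigit (0.15), Tnfrsf4 (0.050) and Ikzf2 (0.43), and with the macrophage covariate for Cd8b1 (0.24), Lag3 (0.27), Tigit (0.21), Ikzf2 (0.10) and Entpd1 (0.18). Without 1 tumour Tnfrsf18 ran from -0.064 to 0.018. The difference in the log2 ratio of 2 genes, Pdcd1 over Cd3e, was -0.04 and became 0.12 with the summed CD3 genes below and 0.0079 between medians, and ran from -0.0982 to 0.054 without 1 tumour. The cause was not tested. No paired analysis was possible because the labels give no shared replicate numbers. Tox (92 counts over the p95HER2 and 338 over the EV tumours) and Ccr8 (102 and 289) had the fewest counts of the 33 genes.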
